A study of Mus musculus with 2 samples.

Results

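Early Myh3-positive cells are iMPC cells that hold RNA for embryonic myosin heavy chain (Myh3) and myogenin (Myog) but almost none for muscle creatine kinase (Ckm). They were selected on measured values: at least 10 raw UMIs each of Myh3 and Myog, and at most 1 UMI each of Ckm and of Top2a, a topoisomerase of dividing cells. A UMI (unique molecular identifier) counts 1 captured RNA molecule. The rule was met by 460 of 9349 kept iMPC cells (4.92%, exact binomial 95% interval 4.49 to 5.38), and by 460 of the 15362 kept cells of both libraries. The counts of these 4 genes are therefore a description of the rule, and nothing is supported by them.

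Induced myogenic progenitor cells (iMPC) are a culture obtained by giving mouse embryonic fibroblasts MyoD, a master regulator of muscle, plus a treatment that the labels abbreviate F/R/C, and they were kept in medium holding F/R/C. The MEF library held fibroblasts in fibroblast medium. Both groups shared the genotype Tg:Pax7-nGFP/C57BL6;DBA2, so the fibroblasts carried the Pax7 reporter as well, and the design text describes the iMPC as a stable clone. Each group was 1 library of the droplet assay of 10x Genomics, so no test between groups was possible. All intervals are exact 95% intervals over molecules or cells and cover counting error only.

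In skeletal muscle formation, committed myoblasts switch on myogenin, leave the cell cycle and fuse. Myh3 encodes the myosin heavy chain of the first fibres, and perinatal and adult myosins follow it. Fusion needs the membrane proteins myomaker (Mymk) and myomixer (Mymx), while alpha-actinin 2 (Actn2) anchors thin filaments of skeletal actin (Acta1) at the Z-disc.

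The 250 bases before the transcription start of 3 genes are printed because the first carries a rule gene shared with the less advanced cells, the second the gene that sets the early cells apart, and the third the marker that varied most with Myh3 among them. They come from RefSeq promoters on GRCm38.p6, the build that the submitters' processing notes name. Capitals mark each E-box (CANNTG, the core bound by MyoD-family factors, found on both strands because it is its own reverse complement) and each CArG box, the core bound by serum response factor. The stretches were chr1:134289754-134290003 (plus strand) for Myog, chr11:67078050-67078299 (plus strand) for Myh3 and chr8:123894776-123895025 (minus strand) for Acta1.
Myog: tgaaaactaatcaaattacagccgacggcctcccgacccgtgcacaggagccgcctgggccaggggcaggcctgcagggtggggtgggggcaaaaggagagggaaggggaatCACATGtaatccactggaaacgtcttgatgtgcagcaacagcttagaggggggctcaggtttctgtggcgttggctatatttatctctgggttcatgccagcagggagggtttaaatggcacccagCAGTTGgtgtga
Myh3: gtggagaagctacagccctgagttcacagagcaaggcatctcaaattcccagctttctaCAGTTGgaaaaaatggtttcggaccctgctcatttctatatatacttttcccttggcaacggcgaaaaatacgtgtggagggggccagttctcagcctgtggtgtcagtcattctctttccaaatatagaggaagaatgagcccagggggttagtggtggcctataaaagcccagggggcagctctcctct
Acta1: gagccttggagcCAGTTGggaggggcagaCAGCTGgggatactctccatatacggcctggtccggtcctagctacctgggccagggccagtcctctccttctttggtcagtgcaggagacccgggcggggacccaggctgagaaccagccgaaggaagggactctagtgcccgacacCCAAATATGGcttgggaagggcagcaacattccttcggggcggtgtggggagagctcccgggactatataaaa
Myog held 2 E-boxes, CACATG starting 138 bases before the start and CAGTTG starting 12 bases before it. Myh3 held 1 E-box, CAGTTG at 191 bases. Acta1 held CAGTTG at 238 bases, CAGCTG at 221 bases and the CArG box CCAAATATGG at 73 bases. An E-box occurred in 66.0% of the 27025 promoters of this length and a CArG box in 1.40%. These matches describe letters only and not binding.

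The rule lies inside a larger set of cells. Myog reached 10 UMIs in 2738 cells and Myh3 in 2071, and both did in 1809. Of those 1809 cells, 858 held at least 5 Ckm UMIs, 349 held 2 to 4, and 602 held 0 or 1. Another 142 of the 602 had at least 2 Top2a UMIs and were left out, and 70 further cells had Myh3 and little Ckm but fewer than 10 Myog UMIs. Inside the threshold, 60 early cells (13.0%) had 10 to 12 Myh3 UMIs and 20 (4.35%) had 10 to 12 Myog UMIs. Over all early cells Myh3 ranged from 10 to 336 UMIs (median 36.5) and Myog from 10 to 207 (median 44). Ckm was at 0 in 260 early cells and at 1 in 200. Just outside, 84 cells of the comparison set had 7 to 9 Myh3 UMIs.

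Early cells were set beside cells of 2 other rules. Myog-only cells had at least 10 Myog, at most 9 Myh3 and at most 1 Ckm UMIs (863 cells, 9.23% of iMPC). Ckm-high cells had at least 5 Ckm UMIs (1037 cells, 11.1%). Dcn-high cells, with at least 10 UMIs of the fibroblast proteoglycan gene Dcn and in none of the 3 sets, served as background (390 cells). The rule for early cells limits Top2a and the other rules do not: 369 Myog-only cells (42.8%) and 110 Ckm-high cells (10.6%) had at least 2 Top2a UMIs. In the MEF library 0 of 6013 cells met the early rule. An approximate upper bound of 3 cells, not an exact interval, is a share of 0.0499%.

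**Figure D1:**
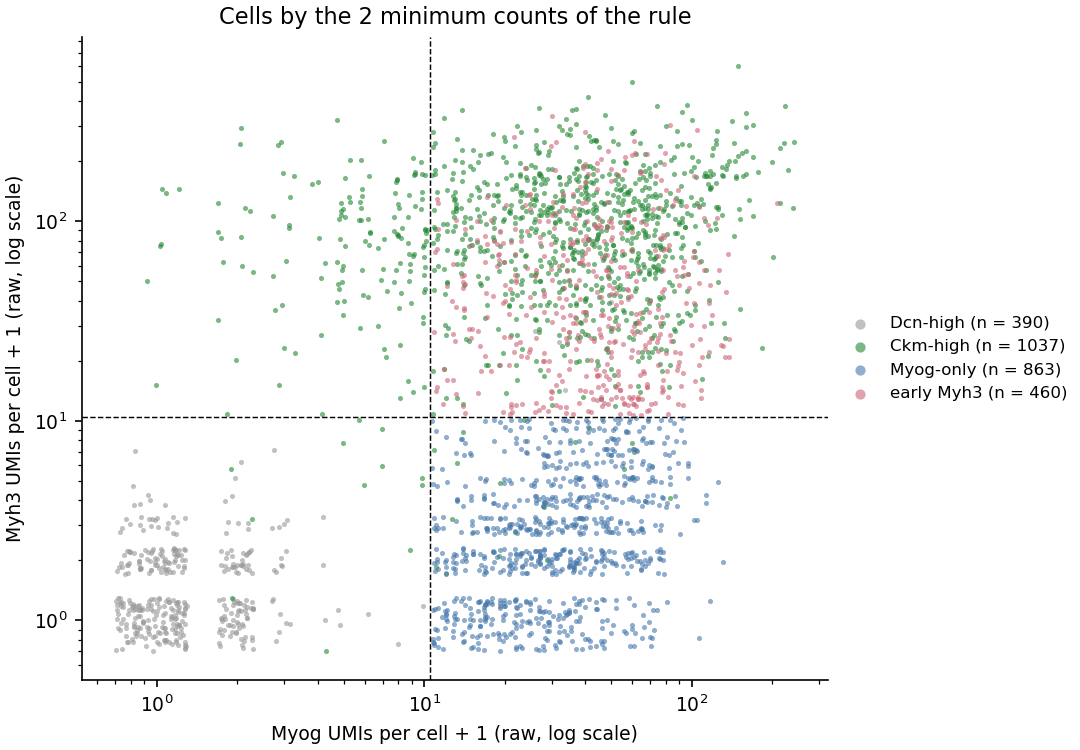
Raw Myog UMIs (x axis) against raw Myh3 UMIs (y axis) per iMPC cell, each plus 1 on a log scale with a small random shift to separate equal counts; each point is a cell, and dashed lines mark the minimum of 10 UMIs. The 460 early cells fill the upper right corner together with most Ckm-high cells, and the 863 Myog-only cells lie below the line.

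Depth differed between the sets. The median was 21509 UMIs per Myog-only cell, 28895 per early cell, 42148 per Ckm-high cell and 17650.5 per Dcn-high cell. Early cells had a median of 4283.5 detected genes, 5.09% mitochondrial UMIs and 29.4% UMIs of ribosomal protein genes. The mitochondrial share was 3.63% in Myog-only and 5.98% in Ckm-high cells, and the ribosomal protein share 34.5% and 24.8%. Scrublet, a caller of droplets with more than 1 cell, marked 22 early cells (4.78%), 48 Myog-only cells (5.56%) and 82 Ckm-high cells (7.91%). Because the rule counts raw UMIs, depth and set cannot be fully told apart, so per-cell values are given after each cell was thinned at random to 8000 UMIs. No early cell shared its barcode with the MEF library, and 16 of the 9349 kept iMPC cells did.

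The markers that the rule did not use were each detected in at least 96.1% of early cells before thinning. Acta1 (chromosome 8, 123891769 to 123894751 on GRCm38, in GENCODE M21) ranged from 3 to 1409 raw UMIs per early cell with a median of 146.5. Mymk ranged from 0 to 73 with a median of 17, and Actn2 from 0 to 53 with a median of 8. At equal depth, Acta1 had a median of 48 UMIs in early cells (quartiles 16 and 110), 2 in Myog-only cells and 110 in Ckm-high cells. The Myog-only median equalled that of Dcn-high cells, so skeletal actin RNA in most Myog-only cells was at the background of the library. Of the 460 early cells, 34 lay at or below the upper quartile of Myog-only cells, 188 at or above the lower quartile of Ckm-high cells and 238 between those quartiles.

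Mymk, the fusion gene on chromosome 2 (ENSMUSG00000009214, 27061636 to 27072179, as GENCODE M21 places it on GRCm38), showed another pattern. At equal depth it had a UMI in 95.4% of early cells (93.1 to 97.2), 95.6% of Ckm-high cells, 68.0% of Myog-only cells and 8.21% of Dcn-high cells. Without thinning the shares were 99.6%, 99.9%, 84.5% and 15.9%. Its median was 4 UMIs in early and in Ckm-high cells and 1 in Myog-only cells. Actn2 (chromosome 13, 12269426 to 12340760) had a UMI in 83.5% of early cells (79.8 to 86.8), 94.5% of Ckm-high cells, 27.0% of Myog-only cells and 7.44% of Dcn-high cells. Perinatal myosin Myh8 had a median of 3 UMIs in early cells, 8 in Ckm-high cells and 0 in Myog-only cells. The quartile ranges of early and Ckm-high cells overlapped for each of these genes.

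**Figure D2:**
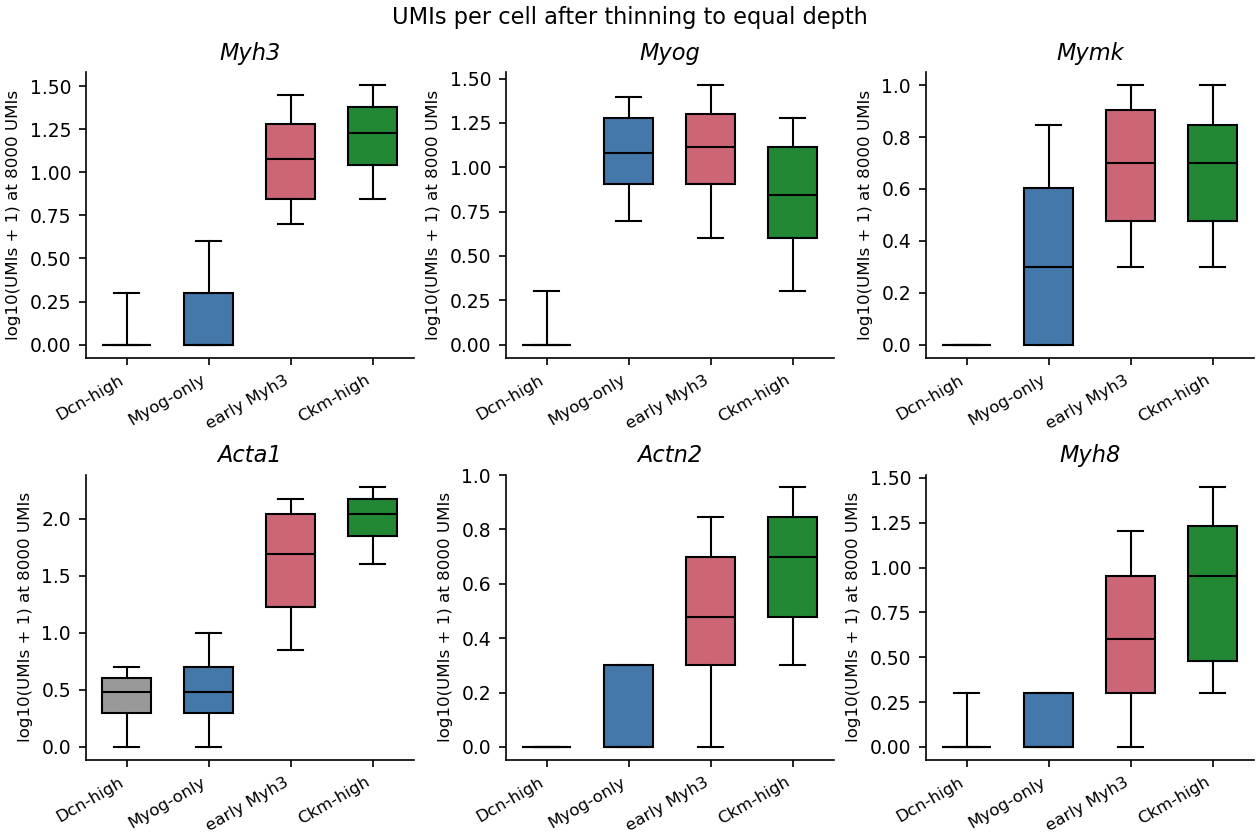
UMIs per cell after thinning to 8000 UMIs, as log10 of UMIs plus 1 (y axis), for 6 genes in Dcn-high, Myog-only, early and Ckm-high cells; boxes span the quartiles, black lines are medians and whiskers reach the 10th and 90th percentiles of cells. Myh3 and Myog chose the sets, whereas Acta1 at a median of 48 UMIs and Actn2 at 2 lie between the other sets and Mymk equals the Ckm-high median of 4.

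UMIs were then summed over the cells of each set and scaled by the set total to CPM, the usual depth-scaled count. Over the 2783 genes that reached 50 CPM in one or both sets, 280 (10.1%) were at least 2-fold higher in early than in Myog-only cells and 302 (10.9%) at least 2-fold lower. Against Ckm-high cells, 13 of 2420 genes (0.537%) were at least 2-fold higher and 17 (0.702%) at least 2-fold lower. Both comparisons use the same early cells. Of the 280 genes higher than in Myog-only cells, 275 lay within 2-fold of Ckm-high cells. So did nearly all tested genes, given the 0.537% and 0.702% beyond it, so this count is no trait of the 280. The median level of the 280 genes was 83.8% of the Ckm-high level, beside 105% over all genes with at least 10 CPM in any set. Gene lists were counted over members with at least 10 CPM in any set, where 9.59% of 7582 genes were at least 2-fold higher and 13.5% at least 2-fold lower than in Myog-only cells. The corresponding shares against Ckm-high cells were 0.659% and 1.52%. The median log2 ratio of all these genes was -0.20 against Myog-only and 0.07 against Ckm-high cells.

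The contractile lists stood far above that background against Myog-only cells. All 24 Z-disc and titin scaffold genes over the level were at least 2-fold higher (median log2 ratio 3.46). So were all 5 striated myosin heavy chains other than Myh3 (3.95) and all 8 actins and thin filament end genes (3.27). All 5 genes of the myosin light chain list, the kinase Mylk4 included, were higher too (3.70). Troponins and tropomyosins were higher in 9 of 10 (2.87). Excitation-contraction coupling genes were higher in 19 of 21 (2.05), muscle energy genes in 13 of 14 (2.88), and assembly chaperones and muscle kelch genes in 11 of 12 (2.59). No member of these 8 lists was 2-fold lower. Acta1 stood at 9392 CPM in early cells and 535 CPM in Myog-only cells, a log2 ratio of 4.14 (4.11 to 4.16). Actn2 stood at 394 and 39.7 CPM (3.31, 3.2 to 3.42). These intervals do not cover the choice of cells: with the rule applied to thinned counts the ratios were 2.50 and 1.88 and the Z-disc median 1.98, and with Top2a and depth limited in all 3 sets they were 3.27, 2.53 and 2.68. Acta1 in Myog-only cells was also at the Dcn-high level, so its ratio has no firm base. Striated actins and myosin heavy chains have close relatives, between which molecules may be misassigned.

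The genes with the largest ratios belonged mainly to the Z-disc, the calcium store and fatty acid handling. Xirp2, an actin-binding repeat protein of muscle, stood at 60.2 CPM against 1.52 CPM (log2 ratio 5.30, 4.79 to 5.87). Ankrd2, a stretch-responsive ankyrin repeat protein, followed at 5.26 and Fabp3, the fatty acid binding protein of heart and slow muscle, at 5.11. Csrp3 (muscle LIM protein) stood at 4.71, Tcap (titin cap) at 4.68 and Myoz2 (myozenin 2) at 4.61. Both calsequestrins, the calcium-binding proteins of the sarcoplasmic reticulum, were among them, Casq1 at 4.70 and Casq2 at 4.60. Adprhl1 at 4.74 was also among them. These genes were not in every early cell: at equal depth Casq2 had a UMI in 71.3% of early and 10.8% of Myog-only cells, and Xirp2 in 18.5% and 1.16%.

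Levels relative to Ckm-high cells, from UMIs summed over each set, differed within gene families. Of the striated actins, cardiac Actc1 reached 97.2% of the Ckm-high level and skeletal Acta1 65.6%. Of the 5 myosin heavy chains over the level, slow Myh7 reached 106%, Myh2 62.5%, Myh1 54.3%, perinatal Myh8 53.5% and Myh4 24.8%. In the troponins, the slow or cardiac forms Tnnt1 (94.4%), Tnnt2 (90.5%), Tnni1 (85.0%) and Tnnc1 (82.4%) lay above the fast forms Tnnt3 (72.1%), Tnni2 (65.3%) and Tnnc2 (62.5%). That order, seen after the values were known, was shared by some other genes of slow fibres and not by others. The slow myosin-binding protein Mybpc1 stood at 58.3% and myoglobin (Mb) at 62.3%. In contrast, Fabp3 of heart and slow muscle stood at 95.6%, and Myoz2 (77.2%) stood above Myoz1 of fast fibres (25.2%). The light chain list ran from 67.5% for the fast regulatory chain Mylpf to 87.7% for embryonic Myl4 and 89.7% for the kinase Mylk4.

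**Figure D3:**
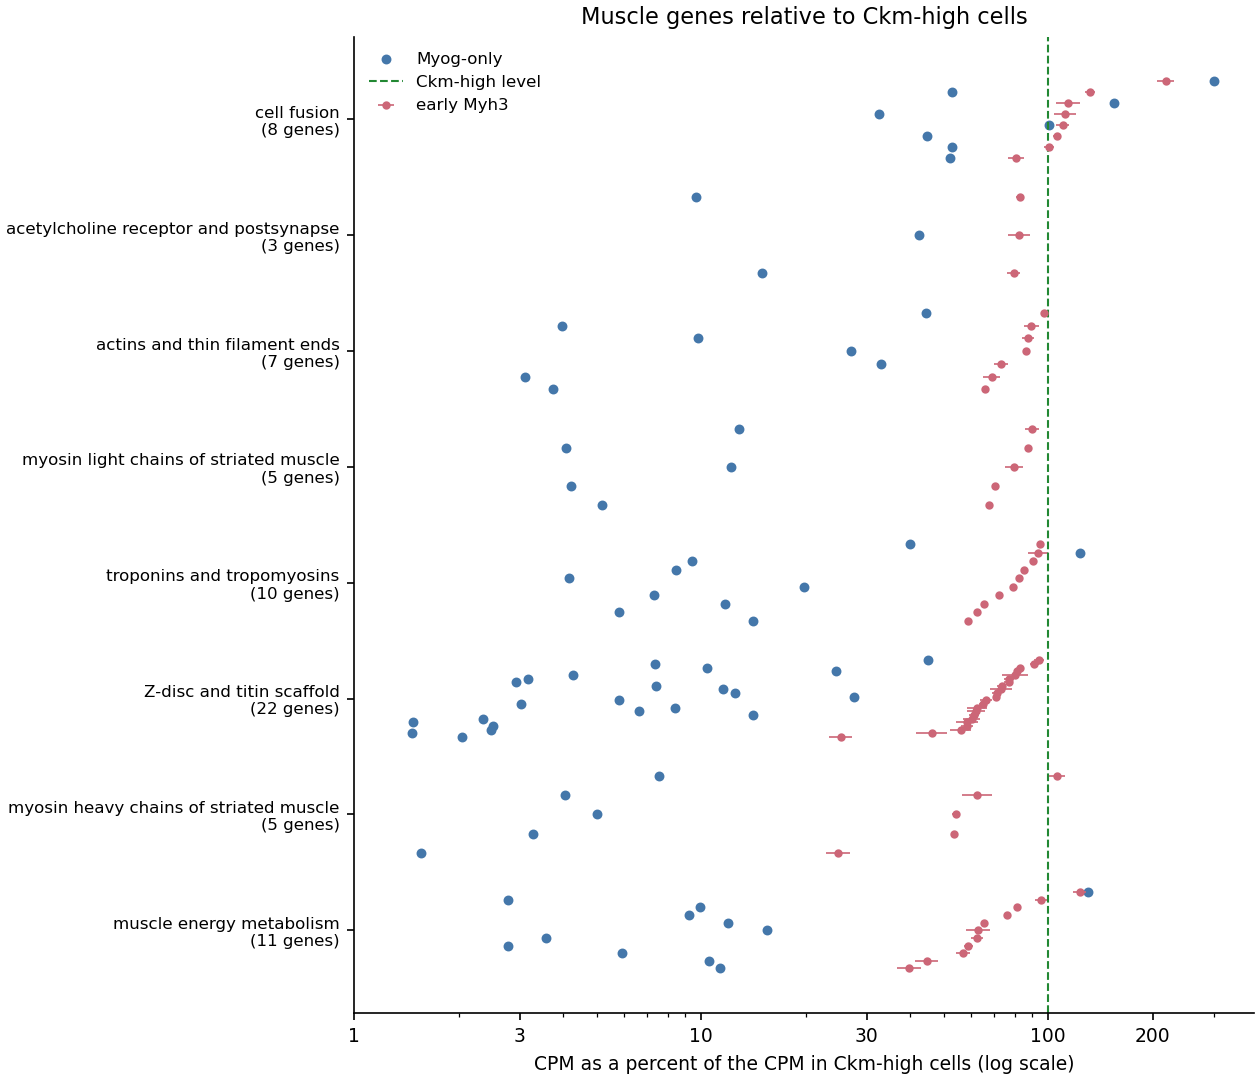
CPM as a percent of the Ckm-high level (x axis, log scale) for genes of 8 lists with at least 50 CPM in Ckm-high cells, rule genes left out; each point is 1 gene, in early cells (with exact 95% counting intervals) or Myog-only cells, and the dashed line is 100%. Fusion genes of early cells lie around the line, contractile genes mostly between 50 and 100%, and Myh4 and Myoz1 near 25%.

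The genes at least 2-fold below Ckm-high cells were led by Pvalb, the calcium buffer parvalbumin of fast fibres, at 25.6 CPM against 144 CPM (log2 ratio -2.49, -2.65 to -2.34). Myh4, the fastest adult myosin, stood at 46.9 against 189 CPM (-2.01) and Myoz1, the myozenin of fast fibres, at 52.2 against 207 CPM (-1.99). Sh3bgr at -1.71, Cmya5 (myospryn) at -1.66, Rgcc at -1.44, Cox7a1, a muscle subunit of cytochrome oxidase, at -1.33, Cd24a at -1.31, Cst6 at -1.26 and Dhrs7c at -1.20 followed. At equal depth Myh4 had a UMI in 14.3% of early cells, 36.5% of Ckm-high cells and 1.54% of Dcn-high cells. Of the muscle energy list, Ckm left out, 4 of 14 genes were at least 2-fold lower than in Ckm-high cells. They were Ckmt2 (mitochondrial creatine kinase) at 33.8% of the Ckm-high level, the AMP deaminase Ampd1 at 39.6%, Cox7a1 at 39.8% and glycogen phosphorylase Pygm at 44.7%. Fabp3 stood at 95.6% and carbonic anhydrase Car3 at 81.2%. These levels come from summed UMIs, and the typical early cell held less. At equal depth the median was 0 UMIs in early and 1 in Ckm-high cells for Fabp3. For Car3 it was 2 and 5 UMIs.

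Few genes were higher in early than in Ckm-high cells. Olfml2b, an extracellular olfactomedin protein, stood at 72.2 CPM in early, 18.0 CPM in Ckm-high and 185 CPM in Myog-only cells, a log2 ratio of 2.01 (1.87 to 2.14) against Ckm-high cells. It had a UMI at equal depth in 35.4% of early, 12% of Ckm-high, 69.6% of Myog-only and 13.1% of Dcn-high cells. Its share in Ckm-high cells was thus near that in Dcn-high cells. Whether these shares come from free RNA was not tested. Next came the laminin receptor subunit Itga6 at 1.35, the kinase Pak3 at 1.35, the actin bundling protein Pls3 at 1.33, drebrin (Dbn1) at 1.30, Epb41l2 at 1.20, the nucleoside transporter Slc29a1 at 1.15, the DNA-binding protein Purb at 1.13, the junction protein Jam3 at 1.12 and Spg21 at 1.12. Itga6 and Pak3 were slightly higher in early than in Myog-only cells (0.56 and 0.28), and the other 8 of these 10 genes were lower.

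Only 6 of 2295 genes (0.261%) were at least 1.5-fold higher in early cells than in both other sets. They were Sept4, C1qtnf3, Col25a1, Ogn, N4bp3 and Sct. Sept4, a septin, stood at 97.6 CPM in early, 23.7 CPM in Myog-only and 48.3 CPM in Ckm-high cells. C1qtnf3 stood at 72.9, 8.36 and 41.0 CPM. Sct, the hormone precursor secretin, stood at 213, 51.3 and 140 CPM and ranged from 0 to 53 UMIs per early cell at equal depth. With cells of 15000 to 40000 UMIs only, the count was 1 gene and none of these 6. With the rule on thinned counts it was 40 genes, 4 of them among these 6, and with totals without mitochondrial and ribosomal protein genes it was 10, all 6 included.

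Fusion genes lay near the Ckm-high level, as did most genes: 7417 of 7582 were within 2-fold of it. Over 14 fusion genes, 5 were at least 2-fold higher and 1 at least 2-fold lower than in Myog-only cells (median log2 ratio 0.56). The shares over all genes were 9.59% and 13.5%. The median level was 109% of Ckm-high cells, beside 105% over all genes. Only Jam3, at 218%, was beyond 2-fold of the Ckm-high level. Mymk stood at 574 CPM in early, 243 CPM in Myog-only and 541 CPM in Ckm-high cells, a log2 ratio of 1.24 (1.19 to 1.29) against Myog-only and 0.08 (0.05 to 0.12) against Ckm-high cells. The first ratio was 0.68 once cells with more than 1 Top2a UMI were left out of all 3 sets. Mymx stood at 340, 137 and 258 CPM, with a UMI at equal depth in 78.3% of early and 68.0% of Ckm-high cells. The cadherin Cdh2 (log2 ratio 1.78), Jam2 (1.70) and the membrane repair gene Dysf (3.09) were the other genes 2-fold higher than in Myog-only cells, and Dock1, an activator of Rac, was lower (-1.80).

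Regulators went in both directions, as did all genes. Over 20 myogenic transcription factor genes other than Myog, 3 were at least 2-fold higher and 6 at least 2-fold lower than in Myog-only cells (median log2 ratio -0.41). The shares over all genes were 9.59% and 13.5%. The 3 higher genes were Myf6 (3.17), the late member of the MyoD family, Mef2c (1.86) and Tead4 (1.89). Myf6 still stood at 45.2% of the Ckm-high level and Mef2c at 95.3%. Myod1 stood at 260 CPM in early, 388 CPM in Myog-only and 174 CPM in Ckm-high cells. Its UMIs may come from the introduced MyoD or from the endogenous gene. The 6 lower genes included Pax7 (-2.71), the satellite cell factor, the inhibitors Id2 (-2.68) and Id3 (-1.55), and the E-proteins Tcf3 (-1.49) and Tcf12 (-1.17), partners of MyoD. Six4 (-1.19) was the other. The Top2a limit applied to early cells only, while 42.8% of Myog-only cells held at least 2 Top2a UMIs. These differences and the selection therefore cannot be told apart.

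All 27 genes of the DNA replication and mitosis list other than Top2a were at least 2-fold lower in early than in Myog-only cells (median log2 ratio -3.93). The Top2a limit applied to early cells only, so this difference and the selection cannot be told apart. Among genes with at least 50 CPM, rule genes left out, the 10 lowest ratios were Hist1h1b (-7.78), Mki67 (-6.80), Cenpe (-5.39), Nusap1 (-5.29), Hist1h2ap (-5.22), Aurka (-4.95), Smc2 (-4.57), Ccna2 (-4.56), Hmmr (-4.50) and Hist1h2ae (-4.49). Hist1h1b had only 5 UMIs over all early cells, and histone genes have close copies. With Top2a at most 1 in all 3 sets the list median was -1.81 against Myog-only cells. Against Ckm-high cells it was -0.62, and 0.78 with that limit in all sets, so its direction there depends on the rule.

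Among 14 cell cycle exit genes, 1 was at least 2-fold higher and 2 were at least 2-fold lower than in Myog-only cells, shares near those over all genes. Gadd45a was the higher one (1.55), and the G1 cyclins Ccnd1 (-1.88) and Ccnd2 (-1.18) were lower. The inhibitor Cdkn1a (p21) stood at 1279 CPM in early, 754 CPM in Myog-only and 1295 CPM in Ckm-high cells. Cdkn1c (p57) went the other way, at 2738, 3392 and 1863 CPM. At equal depth Cdkn1c ranged from 0 to 125 UMIs per early cell with a median of 20 and quartiles of 2 and 43.25.

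Satellite cell and Notch genes were at least 2-fold lower than in Myog-only cells in 8 of 14 and higher in 1 (median log2 ratio -2.04, and -0.53 with Top2a at most 1 in all sets). Over all genes 13.5% were lower and 9.59% higher, which is the background for each list of this paragraph. Notch1 (-2.14), its ligand Dll1 (-1.94), Fgfr4 (-2.77) and Vcam1 (-2.69) were lower. Dlk1, an imprinted Notch-related ligand, was higher at 525 CPM in early, 66.2 CPM in Myog-only and 528 CPM in Ckm-high cells. Its median per cell at equal depth was 1 UMI in early and 3 in Ckm-high cells. Of 11 imprinted and growth factor genes, 2 were higher, Dlk1 again (2.99) and myostatin (Mstn, 3.50), which limits muscle growth, and 0 were lower. With 11 genes, such counts cannot be told apart from the shares over all genes. Acetylcholine receptor and postsynapse genes were higher in 5 of 9 and lower in 0 (median 1.09): Chrna1 (3.10), Chrng (2.41), Chrnb1 (1.09), Musk (3.13) and Ache (2.50). The adult receptor subunit Chrne stayed under the level, with 1 UMI over all early cells. Of 10 RNA binding and splicing genes, Rbfox1 was higher (4.42) and Ptbp1 (-1.06) and Ptbp2 (-1.08) were lower, again near the shares over all genes.

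The label of early muscle cells was set beside marker lists. A list of 6 mature myocyte markers, the rule gene Ckm left out, summed to 3925 CPM in early, 364 CPM in Myog-only and 6286 CPM in Ckm-high cells. With Ckm as a 7th marker the sum in Dcn-high cells was 213 CPM. At least 10 raw UMIs of these 7 markers were held by 93.9% of early, 29.4% of Myog-only and 99.8% of Ckm-high cells. Early cells thus did not lack mature markers. Markers of most other cell types were low. The 8 fibroblast markers summed to 49.0 CPM in early cells, 200 CPM in Myog-only, 75.3 CPM in Ckm-high and 4038 CPM in Dcn-high cells, with 0 to 53 UMIs per early cell and 15 early cells holding 10 or more. Satellite cell markers summed to 78.9 CPM in early, 222 CPM in Myog-only and 77.1 CPM in Ckm-high cells, and 1 of 8, Calcr, was at 0 in early cells. The 6 cardiac markers summed to 7.29 CPM with Nppa at 0, the 5 immune markers to 1.53 CPM with Ptprc and Adgre1 at 0, and the 4 endothelial markers to 0.625 CPM with Kdr and Tek at 0. Epithelial markers summed to 0.486 CPM with Epcam and Krt18 at 0, glial markers to 1.88 CPM with Sox10 at 0, and neuron markers to 54.2 CPM. Smooth muscle markers summed to 956 CPM in early cells, 784 CPM in Myog-only, 796 CPM in Ckm-high and 779 CPM in Dcn-high cells. Their part in the ratios above was not tested.

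Barcodes with 200 to 600 UMIs gave a profile of free RNA with 6924 CPM of Acta1, 855 CPM of Myh3 and 575 CPM of Myog. At 2% of the UMIs of a median early cell it would give 4.0 UMIs of Acta1, 0.494 UMIs of Myh3 and 0.332 UMIs of Myog, and at 10% it would give 20 UMIs of Acta1. With the 2% share, not the 10% share, subtracted from every set, the log2 ratio of Acta1 against Myog-only cells was 4.55.

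Early cells were not uniform. They were ordered by Myh3 UMIs at equal depth and divided into 4 groups of 115 cells. Myh3 is a rule gene and serves here only to order the cells. Contractile genes were higher in each group with more Myh3, whereas the fusion genes Mymk and Mymx showed no such order across these groups, which also differed in depth. Acta1 stood at 3417, 5672, 9659 and 13727 CPM from the group with the least to the group with the most Myh3. Actn2 stood at 167, 263, 395 and 592 CPM, and Myh8 at 213, 500, 798 and 1236 CPM. Mymk stood at 580, 614, 564 and 588 CPM and Mymx at 293, 392, 340 and 343 CPM. Cdkn1c stood at 4365, 4186, 2739 and 1645 CPM and Myod1 at 343, 289, 255 and 196 CPM.

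**Figure D4:**
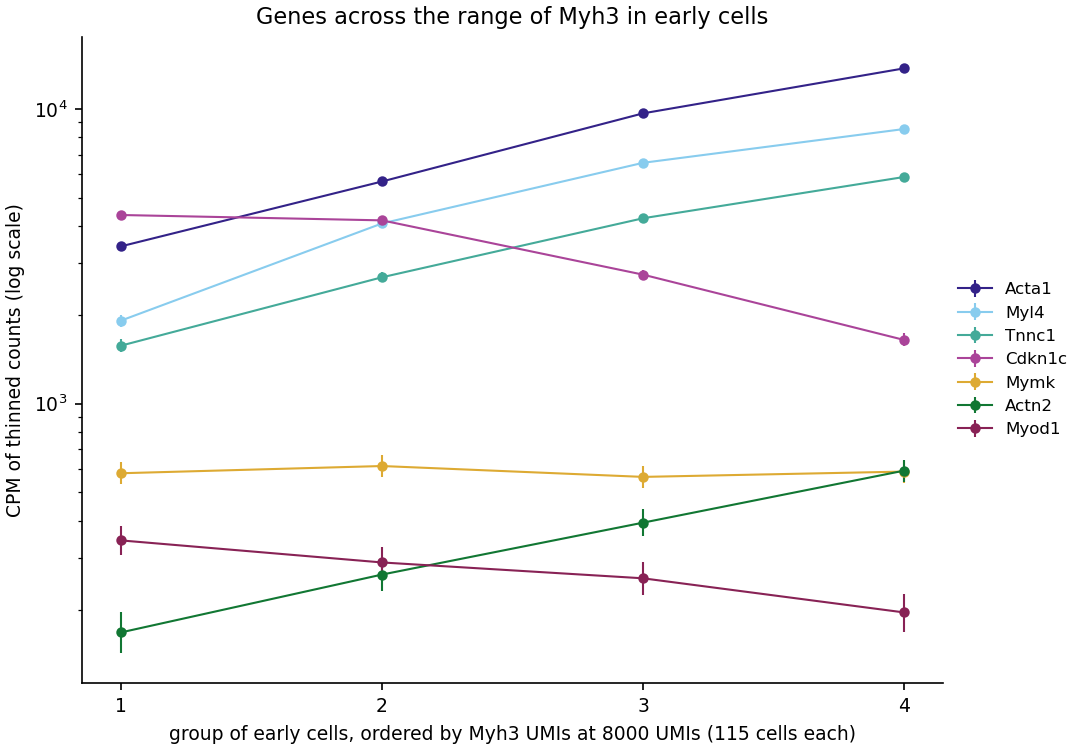
CPM of thinned counts (y axis, log scale) in 4 groups of the early cells ordered by Myh3 UMIs at equal depth (x axis, 115 cells each); bars are exact 95% Poisson intervals, mostly smaller than the points. Acta1, Myl4, Tnnc1 and Actn2 were higher and Cdkn1c and Myod1 lower in the fourth group than in the first, and Mymk lay between 564 and 614 CPM.

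Depth moved with these groups, from a median of 23835 UMIs per cell in the first to 35791 in the fourth. In 4 groups ordered by depth itself, Acta1 stood at 4148 CPM in the shallowest and 12914 CPM in the deepest, Cdkn1c at 4523 and 1427 CPM, and Mymk at 642 and 492 CPM. Within the 230 cells between the quartiles of depth, the 115 cells with less and the 115 with more Myh3 had medians of 28084 and 29933 UMIs. There Acta1 stood at 4353 CPM (4219 to 4490) in the cells with less and 11060 CPM (10846 to 11277) in those with more Myh3. Cdkn1c stood at 4367 and 2617 CPM, and Mymk at 550 CPM (503 to 600) and 662 CPM (610 to 717). Mymx stood at 374 CPM (335 to 416) and 310 CPM (275 to 348). At similar depth Mymk was thus higher and Mymx lower in the cells with more Myh3, unlike across the 4 groups.

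Across the 460 early cells, Spearman's rho with Myh3 at equal depth was 0.60 for Acta1, 0.60 for Myl4, 0.60 for Tnnc1, 0.51 for Actn2, 0.01 for Mymk, 0.03 for Mymx and -0.37 for Cdkn1c. These cells share 1 library and are no replicates, so the values are descriptions. The first principal component of the early cells, computed without the rule genes, held 6.05% of the variance of 1820 genes. Its leading genes on the higher side were Myl1, Myl4, Acta1, Mylpf and Mustn1, and on the lower side Npm1, Purb, Actb, Cdkn1c and Hspd1. Its rho was 0.60 with Myh3, 0.51 with UMIs per cell, 0.61 with the mitochondrial share, -0.68 with the ribosomal protein share and 0.41 with the doublet score. What part each of these measures has in the component was not tested. Spp1 (osteopontin) had one of the highest ratios of variance to mean at equal depth (45.7, at a mean of 1.98 UMIs), beside 48.4 for Acta1.

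Neighbours in expression space were counted for each cell from 30 components of 2000 variable genes at full depth, with the 4 rule genes left out. Of the 15 nearest neighbours of early cells, 33.7% were Ckm-high cells, 30.1% early cells, 19.4% cells with Myh3, Myog and 2 to 4 Ckm UMIs, 10.1% Myog-only cells and 5.0% cells of no such set. The shares of these sets among all kept iMPC cells were 11.1%, 4.92%, 3.73%, 9.23% and 69.5%. Own-kind neighbours made up 67.0% for Myog-only and 67.3% for Ckm-high cells. Both sets hold more cells than the early set, so these shares do not rank closeness to their own kind. Early cells thus lay among Ckm-high cells more often than among Myog-only cells by this measure, though set sizes and depths differ.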

How the data were processed

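Single-cell RNA was measured in 1 iMPC and 1 MEF library. As deposited, each matrix gives whole UMI counts for every gene and barcode, without normalization. The submitters' processing notes name Cell Ranger 4.0, Seurat 3.2.3 and GRCm38.p6, with no role given. Of 26100 shared genes, the 7586 with at least 10 CPM in a set were tabulated, and 7583 were placed with GENCODE M21.

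Kept barcodes had over 8035 UMIs, at least 500 genes and at most 20% mitochondrial UMIs (9349 of 9540 iMPC barcodes). Counts were summed per set and compared as CPM. A ratio has an exact conditional Poisson interval and a share an exact binomial (Clopper-Pearson) one. A gene with 0 counts was set at 3. Thinning drew 8000 UMIs per cell without replacement, and shallower MEF cells were left out (5383 of 6013 stayed). Ratios were tested on simulated data. Python 3.11.15, numpy 2.4.6, scipy 1.17.1, pandas 2.3.3 and scanpy 1.11.5 were used.

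Genes named are the rule genes, the markers, the 10 largest ratios in each direction, up to 10 genes highest in early cells, and members of 16 gene lists by role. One gene that this rule names is not reported here. Genes named as component and variance leaders were chosen after their values were seen. Members, lists and rules were chosen with earlier results of these data known. Doublets were marked but kept. A promoter was found for 216 of the 280 genes higher in early cells (77.1%), too few for a motif share over them.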

Additional observations from a re-analysis of the deposited data

Results flagged for a closer look

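Some iMPC barcodes outside the kept cells also met the 4 gene limits, while 0 MEF cells did. Of 191 barcodes over 8035 UMIs that failed the mitochondrial or gene filter, 25 did (13.1%, 8.65 to 18.7), with a median of 19215 UMIs and 34.4% mitochondrial UMIs. Of 2898 shallower barcodes from 1000 UMIs that passed the other filters, 8 did, with a median of 6705 UMIs. Of 1986 shallower barcodes that failed a filter, 15 did, with a median of 34.0% mitochondrial UMIs. These barcodes entered no comparison.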

How the results depend on the processing

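With 1 library per group there is no replicate to leave out. No paired analysis was possible because each group is 1 library, so the groups share only 1 replicate number. Depth and set are linked, and sums weigh deep cells. The cause of the changes below was not tested unless named.

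The share of early cells (4.92%) was 6.19% at a minimum of 5 UMIs of Myh3 and Myog, 3.03% at 20, 2.78% with Ckm at 0 and 3.24% with the rule on thinned counts, which gave 303 cells, 135 of them among the 460. The 280 genes higher than in Myog-only cells stayed within 1.5-fold in 12 of 13 alternatives and were 673 at a minimum of 10 CPM, where more genes enter. Scaling by the median gene ratio (-0.11 on the log2 scale against Myog-only cells) gave 324 higher and 246 lower genes. The 302 lower genes were 193 with the thinned rule, 137 with Top2a at most 1 in all sets, 556 with totals without mitochondrial and ribosomal protein genes and 1020 at 10 CPM. The 13 genes higher than in Ckm-high cells were 44 with the thinned rule, 6 at 20 UMIs and 37 at 10 CPM. The 17 lower were 90 with the thinned rule, 26 with Ckm at 0, 31 with the mean of each cell's CPM and 64 at 10 CPM. The 6 genes highest in early cells were 40 with the thinned rule, 3 at 10% mitochondrial UMIs, 1 within 15000 to 40000 UMIs, 10 without mitochondrial and ribosomal genes and 23 at 10 CPM.

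With Top2a at most 1 in all sets and 15000 to 40000 UMIs together, an alternative chosen after seeing the data, these counts were 89 lower than Myog-only, 20 higher and 26 lower than Ckm-high, and 1 highest.

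Ratios that reversed were of cycling genes against Ckm-high cells. With Top2a limited in all sets they became 0.69 (Top2a), 0.041 (Hist1h1b), 0.38 (Cenpe), 0.10 (Nusap1) and 0.37 (Hist1h2ap). Top2a is a rule gene, so its own values describe the limit only. In that setting the median depth was 40764 UMIs in Ckm-high and 28895 in early cells. The same raw limit is thus stricter for Ckm-high cells. Aurka became 0.40 in the depth window. With both limits Top2a became 0.72, Cenpe 1.06, Hist1h2ap 0.28 and Aurka 0.62. The neuron marker median against Myog-only cells (-1.16) became 0.042 and 0.12 under these Top2a settings. Of the other values for genes, lists and shares, 1035 stayed within their counting interval and 808 moved beyond it.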
